A study of Mus musculus with 8 samples.

Results

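On mouse chromosome 8, 202 regions carried a CUT&RUN peak of METTL3, out of 871 METTL3 regions on all chromosomes. The regions were defined by merging peaks that shared at least 1 bp across the 4 METTL3 libraries and keeping every merged region on chromosome 8, whatever the number of libraries. Another 583 regions lay on the other chromosomes from 1 to 19 and X. The chromosome was chosen for its share of the METTL3 lists, so that share and the density of its peaks are given as a description, with no test.

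The study mapped METTL3 and METTL14 on the chromatin of C57BL/6 mouse embryonic stem cells, grown with LIF, the GSK3 inhibitor CHIR99021 and the MEK inhibitor PD0325901. CUT&RUN uses an antibody to bring a nuclease to the sites of a protein, and the released DNA fragments are sequenced. The METTL3 antibody was applied to Mettl14 control cells and to Mettl14 CKO cells, the METTL14 antibody to Mettl3 control cells and to Mettl3 CKO cells, and each of the 4 groups has 2 libraries. The labels do not spell out CKO, name a Cre, clone or induction, or tell whether replicates are separate cultures. A p-value therefore reflects only how these libraries vary, and that variation may be technical. The 2 antibodies were used in different cell lines, so effects of antibody and line cannot be told apart. The lists hold no expression values, so the cell type was not checked against markers, and a library with a nonspecific antibody was not analysed here.

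METTL3 is the catalytic subunit, and METTL14 the RNA-binding partner, of the enzyme that places N6-methyladenosine (m6A) on RNA in the nucleus. The enzyme acts on RNA as it is transcribed, and both subunits have been mapped to chromatin. In embryonic stem cells m6A marks many transcripts, among them those of pluripotency factors, and shortens their life.

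The region at the start of Fbxo31, which encodes an F-box protein of a ubiquitin ligase, is printed because it was the METTL3 region with the longest overlap with a RefSeq promoter window on chromosome 8. It spanned chr8:121578809-121579053 and came from Mettl14 CKO replicate 2 alone. METTL14 peaks of Mettl3 control replicate 1 and Mettl3 CKO replicate 2 also fell on it. The 189 bases that lie outside the annotated gene, chr8:121578865-121579053, are given on the minus strand, 5′ to 3′, from the RefSeq promoter table of GRCm38.p6, the assembly behind mm10. Capitals mark CG dinucleotides.
Fbxo31: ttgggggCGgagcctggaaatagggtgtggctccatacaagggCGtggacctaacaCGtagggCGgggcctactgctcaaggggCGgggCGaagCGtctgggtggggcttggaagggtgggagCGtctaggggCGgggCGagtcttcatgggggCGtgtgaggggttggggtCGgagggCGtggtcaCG
The stretch held 14 CG dinucleotides and was 67.7% G or C. The same stretch of all 32851 promoter windows in the table had a median of 4 CG dinucleotides and 51.3% G or C, and 17.9% of them held at least as many CG dinucleotides. The letters GGGCGG, the core of a GC box, were found at 4 places when both strands were read, and 23.2% of all windows, cut alike, held a match on either strand. Only 2 other METTL3 regions touched a promoter window of the table, by 55 bp at Klhl36, a Kelch-like gene, and by 26 bp at Hmgxb4, which encodes an HMG-box protein.

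Chromosome 8 held a larger part of every METTL3 list than of any METTL14 list. Of the METTL3 peaks, 60 of 353 (17.0%, 95% Wilson interval 13.4 to 21.3) lay on it in Mettl14 control replicate 1 and 69 of 341 (20.2%, 16.3 to 24.8) in control replicate 2. In Mettl14 CKO replicate 1 the count was 33 of 242 (13.6%, 9.88 to 18.5), and in CKO replicate 2 it was 57 of 344 (16.6%, 13.0 to 20.9). These intervals cover counting error only. The METTL14 lists had 152 of 3129 peaks there (4.86%), 176 of 3546 (4.96%), 190 of 3922 (4.84%) and 65 of 1439 (4.52%), in the order control 1, control 2, CKO 1 and CKO 2. All 4 METTL14 shares lay near the 4.91% that chromosome 8 makes up of the length of chromosomes 1 to 19 and X. All 4 METTL3 shares lay above it. These shares are of whole lists, which also hold peaks outside those chromosomes. Of the peaks on chromosomes 1 to 19 and X only, chromosome 8 held 19.5%, 23.8%, 16.3% and 19.5% for METTL3, in the same order. For METTL14 it held 5.00%, 5.10%, 4.95% and 4.76%. The means were 16.9 ± 2.70% (SD, n = 4) for METTL3 and 4.80 ± 0.193% (SD, n = 4) for METTL14. Copy number, read depth, mappability and repeats along the chromosome were not analysed here. Their part in the share and in any named region was not tested.

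**Figure D1:**
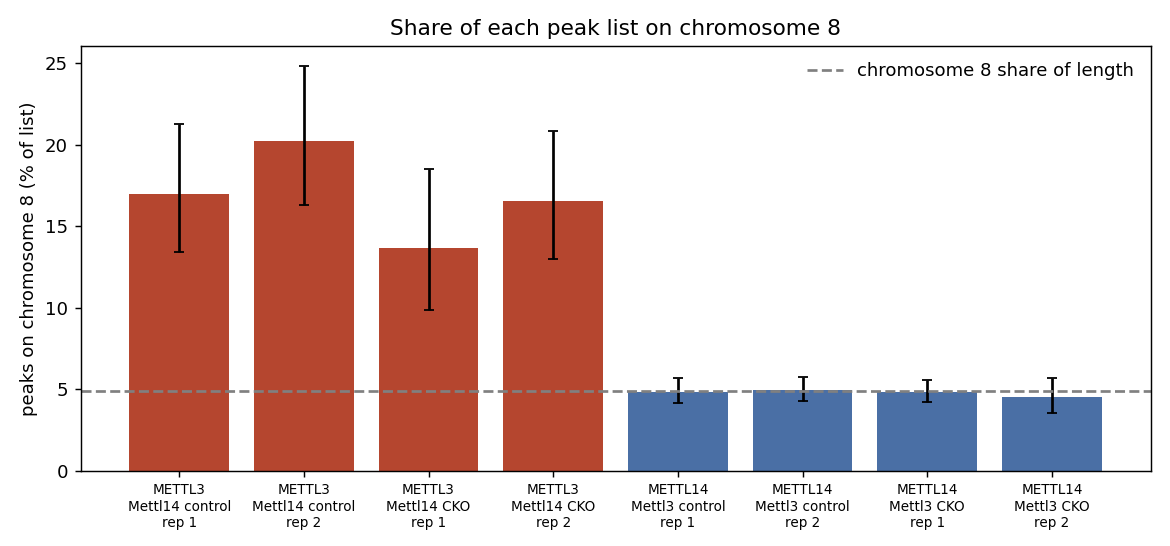
Share of each deposited peak list that lies on chromosome 8 (y axis, percent of the list), with METTL3 libraries in red, METTL14 libraries in blue, 95% Wilson intervals as bars and the chromosome's share of length as a dashed line. The 4 METTL3 lists range from 13.6 to 20.2% and the 4 METTL14 lists from 4.52 to 4.96%.

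Most of the regions came from 1 library. Chromosome 8 carried 189 such regions, or 14.6 per 10 Mb, against a median of 1.66 per 10 Mb on the other chromosomes and 4.35 on chromosome 4, the next densest. Regions called in 2 or more METTL3 libraries numbered 13, or 1.01 per 10 Mb. That lay above the median of 0.326 elsewhere and below the 1.85 of chromosome 9. The regions of 1 library were not the work of a single list, since chromosome 8 was the densest in each list, with 52 regions from control replicate 1, 59 from control replicate 2, 27 from CKO replicate 1 and 51 from CKO replicate 2. Per 10 Mb that came to 4.02, 4.56, 2.09 and 3.94, where the next chromosome of each list reached 1.15, 1.02, 0.979 and 1.31.

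**Figure D2:**
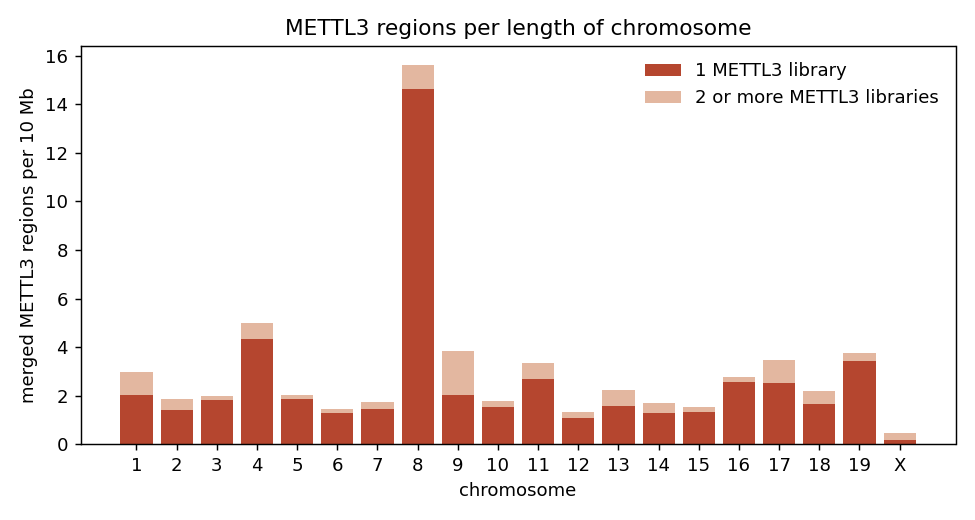
Merged METTL3 regions per 10 Mb (y axis) on chromosomes 1 to 19 and X, split into regions of 1 library (dark) and of 2 or more libraries (light). Chromosome 8 stands at 14.6 regions of 1 library per 10 Mb, and its light segment of 1.01 is lower than that of chromosome 9.

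The METTL3 peaks of chromosome 8 stood late in the deposited lists. All peaks carry the same score, so the lists give no height, and what their order means is not given in the sources used here. When each list was divided into 4 equal parts, the first part held no chromosome 8 peak in any METTL3 library, among 89, 86, 61 and 86 peaks. The last part held 25.0%, 32.9%, 41.7% and 36.0% in control 1, control 2, CKO 1 and CKO 2. The first chromosome 8 peak stood at places 96, 100, 106 and 123. Chromosome 8 peaks stood in runs, the longest of 16, 14, 11 and 15 peaks. Where a cut between parts falls can therefore shift these shares. Whether the parts follow a graded ranking is not known. In the METTL14 lists the parts ranged from 0.833 to 7.50%. Among the first 242 peaks of each METTL14 list, the length of the shortest METTL3 list, chromosome 8 had 0 or 1 peak. That was at most 0.413%, where whole METTL14 lists had 4.52 to 4.96%. The first chromosome 8 peak of the METTL14 lists stood at places 305, 142, 165 and 142. A scarcity of chromosome 8 at the front was thus seen with both antibodies.

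**Figure D3:**
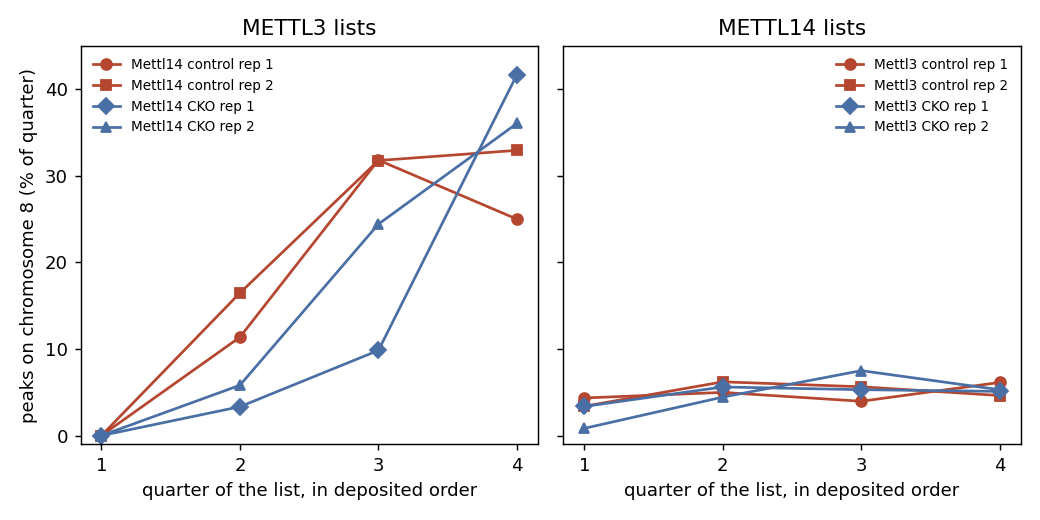
Share of peaks on chromosome 8 (y axis, percent) in 4 equal consecutive parts of each list, in deposited order (x axis), for METTL3 (left) and METTL14 (right), with 1 line per library. The METTL3 lines start at 0 and end between 25.0 and 41.7%, while the METTL14 lines stay between 0.833 and 7.50%.

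Along the chromosome the 202 regions were spread over its whole length, from 3203493 to 127413814, with no empty 10 Mb bin. An even spread would give 15.6 regions per bin. The fewest, 7, lay from 60 to 70 Mb (0.448 of even), and the most, 24 each, from 70 to 80 Mb and from 80 to 90 Mb (1.54 times even). The last, shorter bin from 120 Mb held 23 (1.59 times even). The variance-to-mean ratio over the 13 bins, which is 1 on average for points placed independently, was 2.15 for all regions, 1.73 for regions of 1 library and 12.02 for the 389 METTL14 regions of the chromosome. METTL3 regions therefore lay closer to even than METTL14 regions, 84 of which fell from 70 to 80 Mb. Without control replicate 1 the METTL3 ratio was 1.49.

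**Figure D4:**
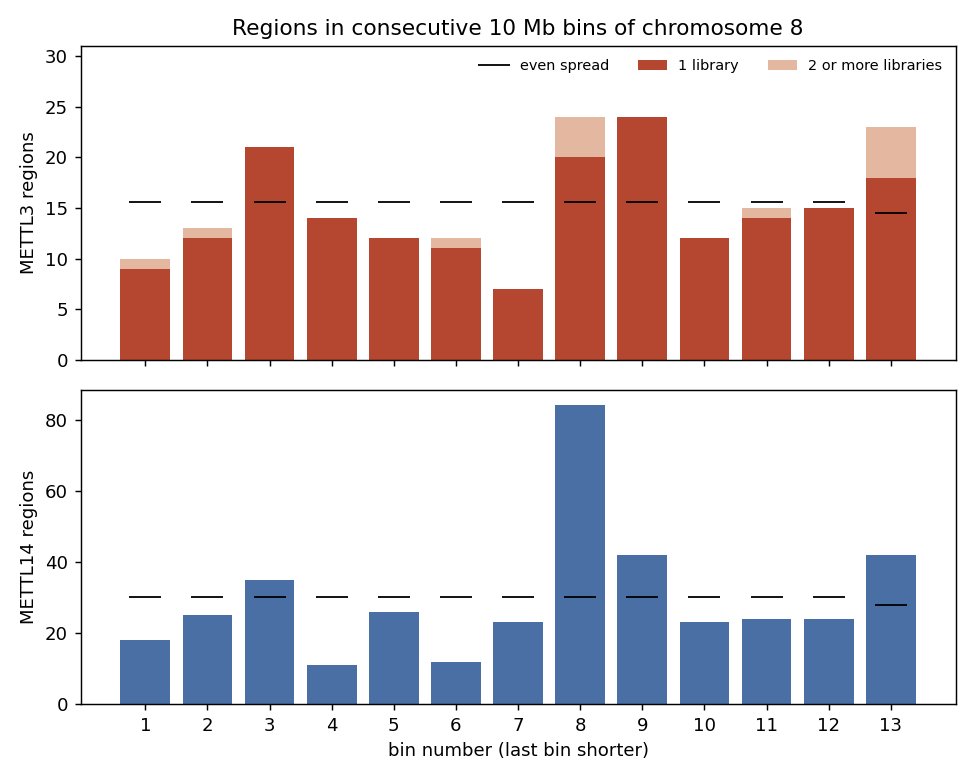
Number of METTL3 regions (top, dark for 1 library and light for 2 or more) and METTL14 regions (bottom) in consecutive 10 Mb bins of chromosome 8, with the count of an even spread as a dash. METTL3 bins run from 7 to 24 regions around 15.6, and METTL14 reaches 84 in bin 8.

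The bins with more METTL3 regions were also those with more genes. Across the 13 bins the number of METTL3 regions per Mb followed protein-coding genes per Mb with Pearson's r of 0.81 and Spearman's rho of 0.82, and METTL14 regions per Mb with r of 0.75 and rho of 0.74. These are descriptions across bins of 1 chromosome that share libraries and base composition. Neighbouring regions were a median of 377 kb apart, where random even placement gives 428 kb. The largest gap, 3.66 Mb, ran from 56318448 to 59977526.

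In 2 places at least 3 regions followed each other with gaps under 20 kb, a criterion chosen after the positions were seen. The first, chr8:71131584-71149386, lies inside the predicted gene Gm7827 and held 5 regions. Its METTL3 peaks numbered 3 in each control library, 2 in CKO replicate 1 and 1 in CKO replicate 2. METTL14 had 3 and 2 peaks there in Mettl3 control cells and 0 in either Mettl3 CKO library. The second, chr8:123426609-123432384, lies between the end of Tubb3, the neuronal beta-tubulin gene, and Def8, and also held 5 regions. METTL3 peaks there numbered 3 and 4 in control replicates 1 and 2, 0 in CKO replicate 1 and 1 in CKO replicate 2. METTL14 had 1 and 3 peaks there in Mettl3 control cells and 1 in each Mettl3 CKO library. These places held 6 of the 13 regions called in 2 or more libraries.

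Within each METTL3 library, more of the chromosome 8 peaks than of the peaks on the other chromosomes lay in a protein-coding gene. The share was 48.3% against 39.9% in control replicate 1 and 50.7% against 36.7% in control replicate 2. In CKO replicate 1 it was 63.6% against 36.5%, and in CKO replicate 2 it was 52.6% against 39.0%. The difference had the same sign in 4 of 4 libraries, and the values of chromosome 8 did not overlap those of the other chromosomes. The means were 53.8 ± 6.77% and 38.0 ± 1.71% (SD, n = 4), a difference of 15.8 percentage points (exact sign-flip permutation test, two-sided, p = 0.13, the smallest that 4 libraries allow, Benjamini-Hochberg adjusted p = 0.188 over 3 measures). Protein-coding genes cover 40.7% of chromosome 8 and 39.99% of the other chromosomes, each counted from 3 Mb on. Among peaks of 1 METTL3 library alone the difference was 9.37 points (exact p = 0.13), a comparison added after the data were seen.

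Over the merged regions, 106 of 202 (52.5%, 45.6 to 59.3) lay in 87 distinct protein-coding genes, and 82 (40.6%) in no annotated gene of any kind. The 87 genes had a median length of 57.4 kb, against 16.1 kb for the 956 genes without a region. Regions placed at random would also fall more often in longer genes, and no comparison with such placement was made. Gm7827 held the most regions, 5. Wwox, an oxidoreductase gene 913 kb long, held 4 regions. Zfp423, which encodes a zinc finger transcription factor, and Sgcz, a sarcoglycan gene, held 3 each, and so did the predicted gene Gm5373. Every region in Wwox, Zfp423, Sgcz and Gm5373 came from 1 library only and carried no METTL14 peak. Exons and introns were not analysed here.

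Regions lay at the ends of genes about as often as the length around those ends would give. Within 2 kb of either end of a protein-coding gene there were 13 of 202 (6.44%, 3.80 to 10.7), where such windows cover 5.57% of the chromosome. By library the share on chromosome 8 was 5.00%, 8.70%, 9.09% and 3.51%, from 3, 6, 3 and 2 peaks, against 11.3%, 8.14%, 6.47% and 9.32% on the other chromosomes, in the order control 1, control 2, CKO 1 and CKO 2. The libraries were split, with chromosome 8 lower in 2 of 4, and the mean difference was -2.23 percentage points (exact sign-flip permutation p = 0.5, adjusted p = 0.5). With windows of 5 kb the difference was 3.52 points, of opposite sign (exact p = 0.13). Starts in the promoter table, some of them inside genes, were examined after the data were seen. Windows of 2 kb around them cover 2.33% of chromosome 8. In the same order they held 0, 5, 2 and 4 peaks there (0%, 7.25%, 6.06% and 7.02%). The shares on the other chromosomes were 6.05%, 3.62%, 1.76% and 3.39%. METTL14 regions on the same chromosome were at a gene end in 203 of 389 cases (52.2%, 47.2 to 57.1).

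Single-library regions made up 12 of the 13 at gene ends. Those at a start were next to Fbxo31, described with its sequence, Klhl36 (chr8:119862300-119862576), Ces2h, a carboxylesterase gene (chr8:104999774-105000050), and Orc6, a subunit of the origin recognition complex (chr8:85300390-85300666). The Klhl36 region lay 69 bp inside the gene and also carried 1 METTL14 peak. Those at the far end of a gene were next to Ces2e, another carboxylesterase gene (chr8:104934633-104934899), Gpm6a, a neuronal membrane glycoprotein gene (chr8:55060445-55060711), Ctrb1, which encodes chymotrypsinogen (chr8:111687689-111687965), Zfp869 (chr8:69703576-69703852) and 4921524J17Rik (chr8:85407789-85408073). Strand was not in the tables used here for Has3, a hyaluronan synthase gene (chr8:106881976-106882260), Trhr2, a receptor for thyrotropin-releasing hormone (chr8:122354395-122354679), and Vps9d1 (chr8:123240556-123240800). Apart from Fbxo31 and Klhl36, none of the 12 carried a METTL14 peak. The thirteenth region lay 234 bp before the start of Zfpm1, a cofactor of GATA factors.

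METTL14 peaks fell on a smaller share of the METTL3 peaks of chromosome 8 than of the other chromosomes. The overlapped share was 10.0% against 46.0% in control replicate 1 and 13.0% against 45.7% in control replicate 2. It was 12.1% against 61.8% in CKO replicate 1 and 10.5% against 49.6% in CKO replicate 2. All 4 libraries were lower on chromosome 8, with no overlap between the sets of values. The chromosome was chosen for its many METTL3 peaks, and the number of those peaks divides these shares. A lower share therefore does not show fewer overlapped sites per length, and the test below is not independent of that choice. The means were 11.4 ± 1.41% and 50.8 ± 7.55% (SD, n = 4), a difference of -39.3 percentage points (exact sign-flip permutation p = 0.13, the smallest possible, adjusted p = 0.188). Under the same limit, sharing with another METTL3 library, as a share of the same METTL3 peaks, was also lower. It was 13.3%, 14.5%, 18.2% and 10.5% on chromosome 8 and 41.1%, 44.8%, 64.1% and 44.9% elsewhere. Among peaks of 1 METTL3 library alone the difference in METTL14 overlap from the other chromosomes was -10.1 points (exact p = 0.13), with the same limit. It was again a comparison added after the data were seen.

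**Figure D5:**
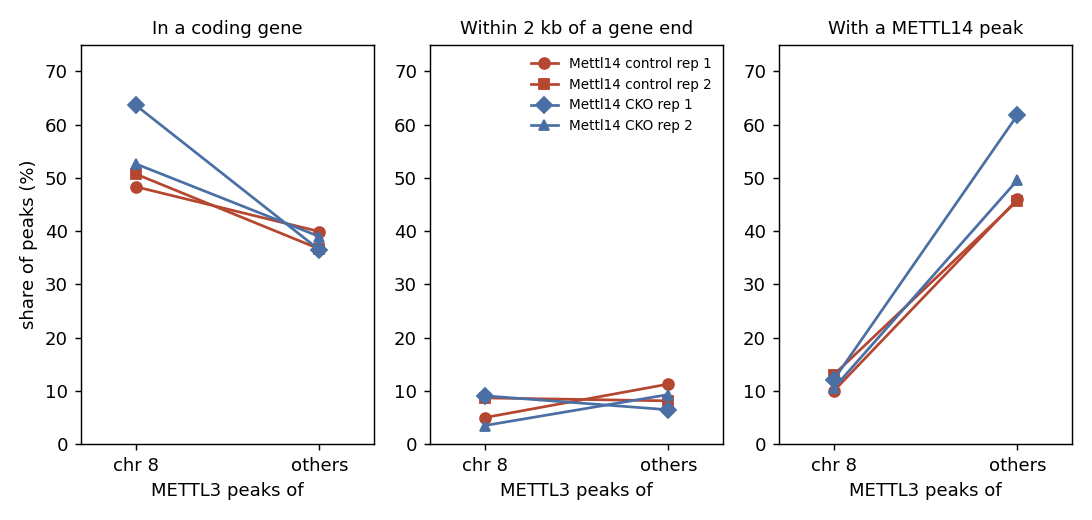
Share of METTL3 peaks (y axis, percent) in a protein-coding gene, within 2 kb of a gene end, and overlapped by a METTL14 peak, on chromosome 8 and on the other chromosomes, with 1 line per library. Lines fall from left to right for gene bodies, cross for gene ends and rise for METTL14 overlap in all 4 libraries.

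By region, 14 of 202 (6.93%, 4.17 to 11.3) carried a METTL14 peak of any library. They were 9 of the 13 regions of 2 or more METTL3 libraries (69.2%) and 5 of the 189 regions of 1 library (2.65%). On the other chromosomes the corresponding shares were 111 of 124 (89.5%) and 58 of 459 (12.6%). Seen from METTL14, 16 of its 389 regions on chromosome 8 (4.11%, 2.55 to 6.58) carried a METTL3 peak, and 183 of 7555 (2.42%) did on the other chromosomes.

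A single region, chr8:125778963-125779252, was called in all 4 METTL3 libraries. It lies inside Pcnx2, a pecanex family gene, 27459 bp from its nearest end, and carried METTL14 peaks of Mettl3 control replicate 2 and Mettl3 CKO replicate 2. Its places in the METTL3 lists were 96, 103, 106 and 124, among the earliest of the chromosome. Regions of 3 libraries were chr8:3754320-3754614, which lay 5336 bp from the start of the lectin gene Cd209a and was missed by control replicate 2, and chr8:71147666-71148138 in Gm7827, missed by CKO replicate 2. The first carried no METTL14 peak and the second carried 1.

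METTL14 peaks of at least 2 libraries fell on 4 METTL3 regions. Beside those of Pcnx2 and Fbxo31, they were chr8:122281256-122281622, before Zfpm1, with METTL14 peaks in 3 libraries, and chr8:19707445-19707808, in 4930467E23Rik, with METTL14 peaks in 2. Both were METTL3 regions of 1 control and 1 CKO library.

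Mettl14 control and CKO libraries were compared to ask how far METTL3 sites depend on Mettl14. Both control and no CKO library called 3 of the 202 regions (1.49%), where 0.804% of METTL3 regions on all chromosomes did. They were chr8:105406514-105406986 in Kctd19, a potassium channel tetramerization domain gene, and chr8:123427997-123428331 and chr8:123431360-123431771 beyond Tubb3. The regions beyond Tubb3 each carried 1 METTL14 peak, and the region in Kctd19 carried none. Both CKO and no control library called 0 of the 202 regions, where 1.38% did on all chromosomes. Since 93.6% of the chromosome 8 regions came from 1 library, few could be replicated in either group. Control replicates shared 5 regions, CKO replicates 2, and 7 regions were called in exactly 1 control and 1 CKO library.

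The chromosome 8 share was 18.6 ± 2.29% in control and 15.1 ± 2.07% in CKO libraries (SD, n = 2), a difference of -3.51 percentage points. It was -1.89 points without control replicate 2 and -2.05 points without CKO replicate 1. Peak number on the log2 scale was 6.01 ± 0.14 and 5.44 ± 0.56 (SD, n = 2), a difference of -0.57. That difference was -0.17 without CKO replicate 1, the shortest list, and -0.96 without CKO replicate 2. Share and peak number are descriptions, since the chromosome was chosen for them. The share in gene bodies was 49.5 ± 1.69% and 58.1 ± 7.78%, a difference of 8.60 points (exact permutation p = 0.333, the smallest that 2 against 2 allows, adjusted p = 0.556 over 5 measures with share and number among them, n = 2). One library carried most of it: the difference was 3.10 points without CKO replicate 1 and 14.1 points without CKO replicate 2. For gene ends (6.85 ± 2.61% and 6.30 ± 3.95%) and METTL14 overlap (11.5 ± 2.15% and 11.3 ± 1.13%) the differences were smaller than the spread between libraries (exact permutation p = 1, n = 2).

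Gene groups of the chromosome were compared by how many members had a METTL3 region inside or within 2 kb, where 95 of the 1043 protein-coding genes (9.11%) did, and by how many had a region within 2 kb of an end. At an end, 16 of all 1043 genes (1.53%) had a METTL3 region and 187 (17.9%) a METTL14 region. Gene length was not matched, and genes with a METTL3 region inside were longer (median 57.4 kb against 16.1 kb). A group with no METTL3 region is therefore not shown to be avoided. None of 9 developmental transcription factor genes had a METTL3 region inside or within 2 kb. METTL14 regions lay at the ends of 8 of them, Sox1, Hand2, Sall1, Irx3, Irx5, Foxf1, Foxc2 and Foxl1. The gene groups were chosen with earlier results of these data known, so their counts are descriptions. None of the 4 immediate early genes had a METTL3 region, and METTL14 was at the ends of 2, Jund and Klf2. Among 3 pluripotency and m6A genes, Fto, an RNA demethylase gene 355 kb long, held 2 METTL3 regions in its body and none at an end. Both regions came from Mettl14 CKO replicate 2 alone and carried no METTL14 peak. METTL14 was at the ends of the other 2 genes, Zfp42 and Klf2. None of 4 metallothionein genes, which encode metal-binding proteins, had a METTL3 region, and 1, Mt2, had METTL14 at an end. None of 53 defensin genes, which encode antimicrobial peptides, had a METTL3 region, or a METTL14 region at an end. Of 19 carboxylesterase genes, Ces2e and Ces2h had a METTL3 region at an end and 0 had a METTL14 region there. Of 26 genes with a Zfp symbol, 4 had a METTL3 region inside or within 2 kb, at an end in Zfp869 and Zfpm1 and in the body in Zfp963 and Zfp423, and 10 had METTL14 at an end.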

How the data were processed

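The 8 libraries were deposited as separate peak lists, with no pooling of replicates. The authors' lists give peak starts and ends in mm10 and a deposited score, which was 1 for every peak. The tools listed, without role or order, in the submitters' processing notes are HOMER, Bowtie2 2.4.1, Trimmomatic 0.38, SAMtools and CASAVA. Depth, peak threshold and background library were not given in the sources used here. Peak numbers may depend on that depth. Per the deposited lists, peaks were 285, 277, 267 and 245 bp wide in the METTL3 libraries.

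Overlap meant at least 1 bp shared. Genes, ends and lengths came from the RefSeq table of GRCm38.p6, which has no strand or exons. Strand, where given, came from the promoter table, which matched 725 of the 1043 protein-coding genes of chromosome 8. Gene rows before 3 Mb (340 in all) were left out. Chromosome length was taken to the last gene or peak end. Named regions were those of all 4 or of 3 METTL3 libraries, of both libraries of 1 group only, with METTL14 peaks of at least 2 libraries, and up to 12 single-library regions within 2 kb of a gene end. The members and lists were chosen with earlier results of these data known. Group tests were exact permutations over libraries, two-sided. Alternatives covered windows, overlap rules, bins, list parts, left-out libraries and a replicate block. Scripts were tested on simulated data and used Python 3.11.15, numpy 2.4.6, pandas 2.3.3, scipy 1.17.1 and matplotlib 3.10.9.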

Additional observations from a re-analysis of the deposited data

How the results depend on the processing

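Of 84 alternatives over all results, 11 turned the direction, 3 moved a value with no test beyond its spread, and 1 brought a difference, that in gene bodies between CKO and control, to 0. Gene ends and METTL14 overlap between CKO and control libraries had no settled sign. For gene ends (-0.548 points) the difference was 0.857 with windows of 1 kb and 2.92 at gene starts only, and leaving out a library gave -3.34 to 2.24. For METTL14 overlap (-0.198 points) it was 5.00 with the first 50% of each list, 1.97 with 50% reciprocal overlap and 1.14 with peaks of at least 2 METTL14 libraries, and leaving out a library gave -1.72 to 1.32. Gene ends on chromosome 8 against the others (-2.23 points) gave 3.52 with windows of 5 kb and 1.38 at gene starts only. The difference in chromosome 8 share between antibodies (12.1 points) was 16.5 with shortened METTL14 lists, and 12.7 with both shortened. The variance-to-mean ratio over bins (2.15) was 1.49 to 2.4 without 1 library. The first 50% of each list gave 22 regions in place of 202, since chromosome 8 peaks stand late in the lists. With the same shortened lists the gene body difference was the one at 0, and the CKO difference in log2 peak number was -1.90. Leaving out a library gave -0.96 to -0.17 for that number, -5.13 to -1.89 points for the chromosome 8 share and 3.10 to 14.1 points for gene bodies. The cause of the other changes was not tested. Gene starts, both lists shortened, the first 50% for the region number and peaks of 1 METTL3 library only were chosen after seeing the data.

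With the replicate number as a replicate block, the differences between CKO and control stayed the same, at -3.51 points for the share and 8.60 points for gene bodies, the latter with an exact permutation p of 0.5, the smallest that 2 pairs allow. The labels give only a number, which does not show that the libraries were paired.

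Unknown depth, a constant score and 2 libraries per group limit every comparison. Even the smallest exact p these designs allow, 0.333 for 2 libraries against 2 and 0.13 for 4 libraries, misses the usual threshold, and counts at gene ends reached at most 6 per library.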
